A study of Mus musculus with 45 samples.

Results

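The genes described here encode UDP-glucuronosyltransferases, glutathione S-transferases and sulfotransferases, the main conjugating enzyme families of phase II drug metabolism. They were taken as the protein-coding genes of mm10 whose symbols start with Ugt1 or Ugt2, with Gst and a class letter (a, k, m, o, p, t or z), or with Sult and a number. Of 21631 protein-coding genes annotated on the autosomes and the X chromosome, 62 met this rule, namely 19 UDP-glucuronosyltransferases, 22 glutathione S-transferases and 21 sulfotransferases. A gene was said to have a summit, the highest point of a ChIP-seq peak, when one lay inside its annotated span or within 10 kb of either end.

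Chromatin immunoprecipitation with sequencing was carried out on nuclei of mouse liver, and the series holds 45 samples in 18 groups. The 8 samples used here were livers with the genotype REV-ERBa3HA/3HA, in which the clock repressor REV-ERBα carries an HA epitope tag, precipitated with anti-HA magnetic beads and given no AAV virus. There were 4 such samples at ZT10 and 4 at ZT22 (zeitgeber time, counted in hours from lights on), and the age and sex of the animals were not given in the sources used here. Per the labels, a single peak list was made from the 4 pooled samples at each time, so no value below has a spread between replicates and no test between times or gene families was made. Untagged (B6-WT) liver precipitated with the same beads was not analysed here, and how much of a peak depends on the tag was not tested.

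Phase II enzymes join a polar group to a drug, hormone, bile pigment or bile acid, which makes the product easier to excrete in bile or urine. UDP-glucuronosyltransferases sit in the endoplasmic reticulum and transfer glucuronic acid, glutathione S-transferases join glutathione to electrophiles, and cytosolic sulfotransferases transfer sulfate from the donor PAPS. REV-ERBα is a nuclear receptor that recruits the NCOR1 corepressor, and its level in liver rises and falls over the day. A lone REV-ERBα molecule recognises the half-site AGGTCA behind an AT-rich flank, and many phase II genes lie in arrays of tandem copies.

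The ZT10 list held 27929 peaks and the ZT22 list 36. Each peak carries the authors' fold, the signal at its summit over the local background, and the lowest fold listed at ZT10 was 4.01. The number of sequenced fragments over a summit was solved from that fold and the peak's −log10 p, and ran from 83 to 3378 at ZT10 with a median of 149. Intervals given for fragments are exact 95% Poisson intervals and cover counting error only. Among markers of liver cell types, a ZT10 summit was present at 8 of 8 hepatocyte genes, 0 of 6 Kupffer cell genes, 3 of 6 endothelial genes, 1 of 5 cholangiocyte genes and 1 of 5 stellate cell genes. Of all protein-coding genes, 54.5% had a ZT10 summit. The highest fold among the markers was 24.2, at the endothelial gene Stab2, and the highest at a hepatocyte gene was 19.9, at Fgb. Whole liver mixes these cell types, and a peak does not give the expression of a gene.

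Of the 62 phase II genes, 53 had a ZT10 summit (85.5%), against 54.5% of all protein-coding genes. A summit of fold 10 or more was present at 35 of them (all genes, 19.1%), and one of fold 20 or more at 6 (all genes, 3.99%). There were 3 or more summits at 27 members (all genes, 17.3%). The strongest summit per gene had a median fold of 14.02 over the 53 members with one and 7.82 over all genes with one. The median gene span was similar, at 17473.5 bp for the members and 17329 bp for all genes. It was 115742 bp for the 9 Ugt1a genes, all of which had 3 or more summits. The part of gene length in these counts was not tested. The background of all genes includes those silent in liver, and whether the members differ from other liver-expressed genes was not tested. No member had a ZT22 summit, while 0.0693% of all genes did, so at that background the absence says little about these genes in particular.

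The members are not independent of each other, because most lie in arrays and share summits. Members of 1 family within 250 kb of each other formed 20 clusters, of which 11 held several genes and together 53 members. A summit was present at 18 clusters, and the share for comparable stretches with other genes was not counted. The 53 genes with a summit drew on 113 distinct summits, of which 32 were within reach of more than 1 member. The strongest summit was shared with another member at 21 genes and lay outside the gene's own span at 35. Of the 113 distinct summits, 61 lay inside a member's span, 4 inside another gene only and 48 in no gene span. The distinct summits had folds from 4.01 to 23.9, with 38 at 10 or more and 19 below 5. Their median fold was 7.22, close to the 6.81 over all 27920 ZT10 summits on the autosomes and the X chromosome. The shares of all summits at fold 10 or more and below 5 were not counted.

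**Figure D1:**
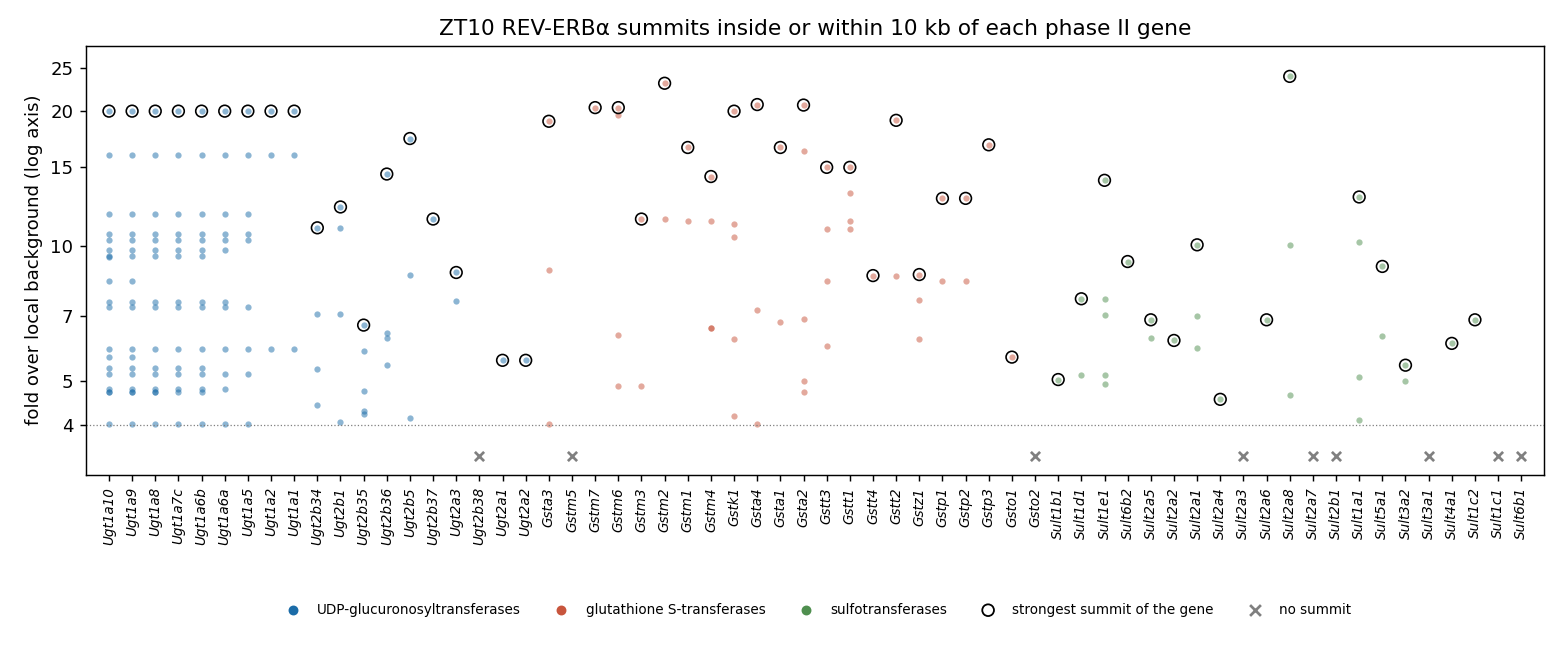
Each column is 1 of the 62 genes, grouped by family and ordered along the chromosomes, and each point is a ZT10 summit placed by its fold over local background on a log axis. Circles mark the strongest summit of a gene, crosses mark the 9 genes with none, and the 9 Ugt1a genes share the same strongest summit of fold 19.996.

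Values differed by family, as the plot of shares by family shows, and the differences were not tested. Glutathione S-transferases had a summit at 20 of 22 genes (all genes, 54.5%), of fold 10 or more at 17 (19.1%) and of fold 20 or more at 5 (3.99%). Their median strongest fold was 16.6. Some of these genes count the same strongest summit, namely Gstm6 and Gstm7 (fold 20.4), Gstt1 and Gstt3 (14.99), and Gstp1 and Gstp2 (12.8). UDP-glucuronosyltransferases had a summit at 18 of 19 genes, of fold 10 or more at 14 and of fold 20 or more at 0. They had 3 or more summits at 14 (all genes, 17.3%). Their median strongest fold of 18.7 rests on the Ugt1a genes, which count the same peak 9 times. Both counts of 14 also include all 9 Ugt1a genes, whose nested spans share summits. Sulfotransferases had a summit at 15 of 21 genes but reached fold 10 at only 4, a share close to that of all genes, and their median of 6.86 was below the 7.82 of all genes with a summit. The family with the lowest folds had the longest genes, with a median span of 28456 bp for sulfotransferases against 7465 bp for glutathione S-transferases. Counted as distinct summits, the families had 44 (Gst), 41 (Ugt) and 28 (Sult). The median fold of these summits was 9.66 (Gst), 6.67 (Ugt) and 6.58 (Sult), beside 6.81 for all ZT10 summits.

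**Figure D2:**
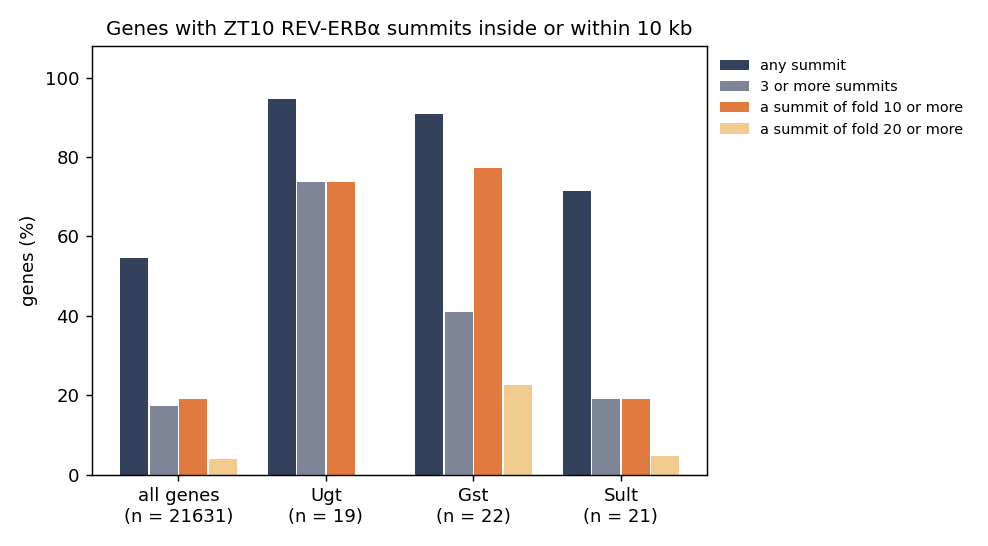
Bars give the percentage of genes with any ZT10 summit, with 3 or more, and with one of fold 10 or 20 or more, for all 21631 protein-coding genes and for each family. At fold 10 or more the bar for sulfotransferases (4 of 21) is level with that of all genes (19.1%). Those for Gst (17 of 22) and Ugt (14 of 19) stand above it, and the Ugt bar counts 9 Ugt1a genes through the same peak. The Gst bar counts Gstm6 with Gstm7, Gstt1 with Gstt3 and Gstp1 with Gstp2 through shared peaks.

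The promoters of 4 Ugt2b genes of the same array are printed first. Those of Ugt2b5, Ugt2b37 and Ugt2b38 show how close copies can differ in the peak list, and that of Ugt2b36 is less alike. Each line gives 100 bases that end just before the annotated start, from the minus strand of chromosome 5, as RefSeq gives them for GRCm38.p6 (the build also called mm10). The capitals mark the half-site AGGTCA. The stretches are chr5:87092556-87092655 for Ugt2b36, chr5:87140341-87140440 for Ugt2b5, chr5:87254789-87254888 for Ugt2b37 and chr5:87424204-87424303 for Ugt2b38.
Ugt2b36: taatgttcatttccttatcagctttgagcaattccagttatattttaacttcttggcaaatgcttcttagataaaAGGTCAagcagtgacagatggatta
Ugt2b5: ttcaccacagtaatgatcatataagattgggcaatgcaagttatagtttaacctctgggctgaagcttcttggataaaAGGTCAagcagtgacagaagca
Ugt2b37: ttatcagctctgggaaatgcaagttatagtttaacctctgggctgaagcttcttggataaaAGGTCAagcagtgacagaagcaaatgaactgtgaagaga
Ugt2b38: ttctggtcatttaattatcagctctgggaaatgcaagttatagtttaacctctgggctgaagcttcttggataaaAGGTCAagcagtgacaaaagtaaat

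A run of 62 bases around the half-site was identical in Ugt2b5, Ugt2b37 and Ugt2b38, and a run of 22 bases in all 4 genes. Over windows of 300 bases (250 before the start and 50 after it), Ugt2b37 and Ugt2b38 were 91.0% identical, Ugt2b38 and Ugt2b5 87.0%, and Ugt2b37 and Ugt2b5 82.3%. The ZT10 peaks differed. A peak covered the window of Ugt2b36 (fold 14.5, summit 321 bp downstream of the start), of Ugt2b5 (8.65, summit 76 bp upstream, inside the printed stretch) and of Ugt2b37 (11.5, summit 1308 bp upstream). Ugt2b38 had no peak over its window and no summit within reach; the nearest, of fold 5.78, lay 12713 bp outside the gene. Words of 50 bases shared with another gene's window made up 23.5% of the Ugt2b37 window, 19.5% of Ugt2b38, 9.16% of Ugt2b5 and 0% of Ugt2b36. How reads were placed among these copies is not given in the labels, and its part in the difference was not tested.

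The whole Ugt2 array, whose enzymes glucuronidate steroids, bile acids and drugs, has 10 genes on chromosome 5, of which 9 had a summit (all genes, 54.5%). The strongest summit of the array had a fold of 17.4 and 374 fragments (337.1 to 413.9) and lay 7898 bp upstream of Ugt2b5. At Ugt2b1 the strongest summit, of fold 12.2 with 262 fragments, fell 1 bp inside the annotated start, and at Ugt2a3 the summit of fold 8.74 fell 3 bp inside it. Ugt2b34 had its strongest summit, of fold 10.99, at 4148 bp upstream, with a weaker one of 7.05 at 83 bp upstream. Ugt2b35, the only gene of the array on the plus strand, had 5 summits, the highest of fold 6.67. Ugt2a1 and Ugt2a2, which overlap and are known from the olfactory epithelium, shared 1 summit of fold 5.57 beyond their common 3′ end. Fold 10 or more was thus reached at 5 of 7 Ugt2b genes and at 0 of 3 Ugt2a genes (all genes, 19.1%).

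The Ugt1a genes on chromosome 1 form a nested locus in which each gene has its own first exon and all share the remaining exons, so their spans overlap from chr1:88055411-88220002 (Ugt1a10) down to chr1:88211959-88220002 (Ugt1a1, which conjugates bilirubin). The locus held 19 distinct summits, all within reach of Ugt1a10, 18 of Ugt1a9, 16 of Ugt1a8, 15 each of Ugt1a7c and Ugt1a6b, 12 of Ugt1a6a, 9 of Ugt1a5 and 3 each of Ugt1a2 and Ugt1a1. That order follows the length of the nested spans and is no ranking of the genes. The strongest summit, of fold 19.996, lay 4715 bp beyond the shared 3′ end and 12758 bp downstream of the Ugt1a1 start, and the nearest annotated start was that of Mroh2a at 2303 bp. The next, of fold 15.99, lay 1863 bp downstream of the Ugt1a1 start. Only a few summits were close to a first exon, with fold 11.8 at 276 bp downstream of the Ugt1a5 start and 4.81 at 435 bp downstream of the start of Ugt1a6a, an enzyme for planar phenols.

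Those 2 strongest Ugt1a summits differed from the others in the counts behind them. They held 1871 fragments (1787.2 to 1957.7) and 1188 fragments (1121.4 to 1257.5), where no other Ugt1a summit exceeded 277. Their local background was also high, at 21.14 and 16.6 against a lowest value of 4.14 that held at most of the list. They were the only 2 of the 113 distinct summits with a background over 2 times the lowest. Fold and fragments therefore order the members differently. The summit upstream of Gstk1 had nearly the same fold, 19.99, from 431 fragments (391.3 to 473.7), because its background was 4.14. What raises the local background at the Ugt1a1 end was not tested.

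**Figure D3:**
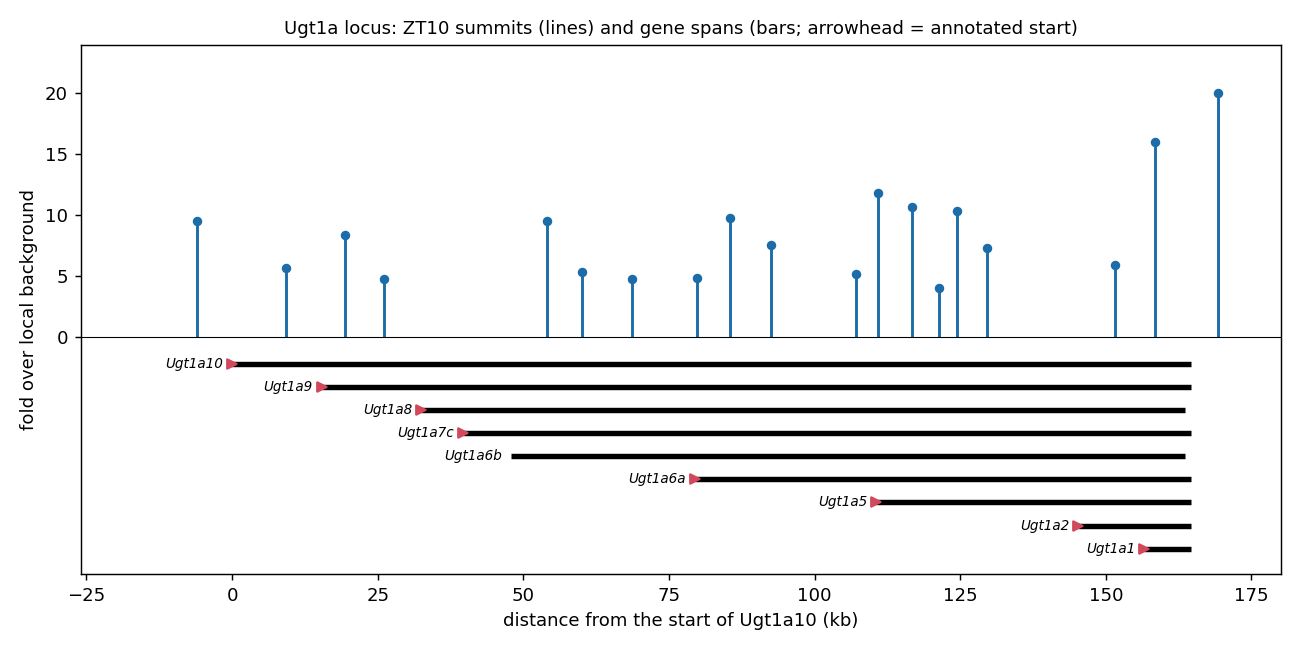
Vertical lines are the 19 ZT10 summits of the Ugt1a locus, placed by distance from the start of Ugt1a10 in kb and by fold over local background, with the nested gene spans drawn as bars below. The folds of 15.99 and 19.996 stand at the end that holds Ugt1a1, and the arrowheads mark annotated starts (none was given for Ugt1a6b).

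Among glutathione S-transferases, the mu class array on chromosome 3 had 7 genes and 11 distinct summits. Gstm2 had the summit of highest fold in the family, 23.1 with 498 fragments (455.2 to 543.7), 1690 bp downstream of its start. Gstm7 had a summit of fold 20.4 with 439 fragments, 45 bp upstream of its start, which was also within reach of Gstm6, whose own strongest was 19.6 at 2674 bp downstream. Gstm1 had 16.6 inside the gene, Gstm4 had 14.3 at 30 bp downstream of its start and Gstm3 had 11.5 at 3435 bp upstream. Gstm5, at the end of the array and facing the other way, had none, with the nearest summit 29986 bp away. All other genes of the array had a summit of fold 11.5 or more.

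The alpha class genes detoxify lipid peroxidation products and all 4 had strong summits, with the strongest outside the gene span in each. Gsta4, known for 4-hydroxynonenal, had a fold of 20.7 at 7912 bp outside its span. Gsta2 had 20.6 with 520 fragments (476.3 to 566.7) at 7461 bp upstream, and a second of 16.3 at 1246 bp upstream. Gsta1 had 16.6 at 747 bp upstream, and Gsta3 had 18.98 at 8400 bp upstream with a weaker summit of 8.83 at 39 bp upstream. The window of Gsta1 shares 58.6% of its 50-base words with the genes Gm10639 and Gm3776, and how reads were placed among them was not tested. At Gsta2 and Gsta3 the summit several kb upstream was the stronger, and at Gsta1 the one nearer the start was, as its next, 7222 bp upstream, had a fold of 6.76.

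Summits at the other classes ranged more widely. Gstk1, a mitochondrial and peroxisomal enzyme, had 5 summits, with fold 19.99 at 4296 bp upstream and 10.48 at 129 bp downstream of its start. The theta class array held 8 distinct summits, with 19.1 inside Gstt2, 14.99 inside Gstt1 and within reach of Gstt3, and 8.60 for Gstt4. Gstp3 had 16.8 at 9323 bp upstream under a peak 21545 bp wide, and Gstp1 and Gstp2, whose windows are 80.7% identical, shared a summit of 12.8. Gstz1, which acts in tyrosine breakdown, had 8.65, and Gsto1, a dehydroascorbate reductase, had 5.66 at 205 bp downstream. Gsto2 had none within reach, as the Gsto1 summit lay 10260 bp from it. The mu, alpha, kappa, theta and pi classes thus held every glutathione S-transferase of fold 10 or more, and the omega and zeta classes held none.

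The summit of highest fold among all 62 genes lay in a sulfotransferase. Its fragment interval overlaps those of the strongest summits of Gstm2 (455.2 to 543.7) and Gsta2 (476.3 to 566.7). Sult2a8, a bile acid sulfotransferase of mouse liver, had a fold of 23.9 with 516 fragments (472.4 to 562.5) at 492 bp upstream of its second annotated start, and a further summit of 10.1 at 160 bp upstream of its first. The other Sult2a genes of that array on chromosome 7 were weaker. Sult2a1 reached 10.1, Sult2a5 and Sult2a6 each 6.86, Sult2a2 6.17 and Sult2a4 4.56, while Sult2a3 and Sult2a7 had none. Fold 10 or more was thus reached at 2 of the 8 genes of the array, and fold 20 or more at 1. Sult2a3 and Sult2a5 have windows 80.7% identical, and no peak lay over either window; the nearest summit to Sult2a3 lay 77786 bp away, and the strongest of Sult2a5 lay 13868 bp downstream of its start.

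**Figure D4:**
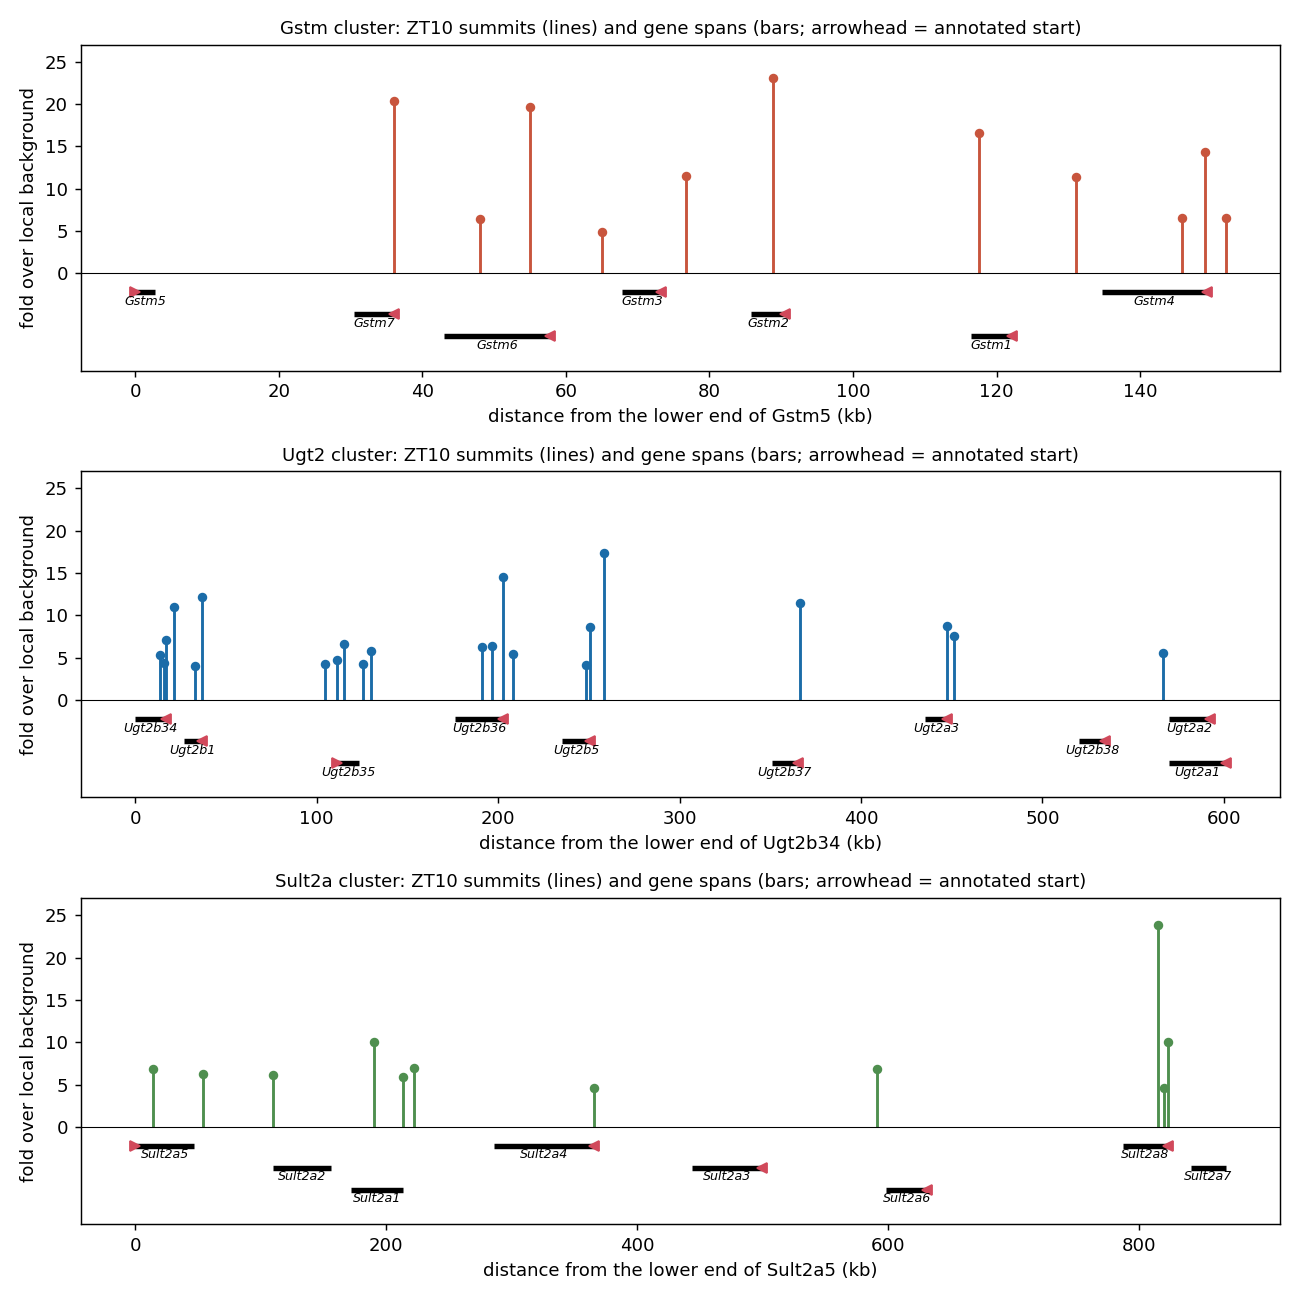
ZT10 summits (lines, by fold over local background) and gene spans (bars) of the Gstm, Ugt2 and Sult2a arrays, by distance in kb from the lower end of the first gene. In the Gstm array most genes have a summit of fold 11.5 or more, in the Ugt2 array the highest reaches 17.4, and in the Sult2a array 1 gene, Sult2a8, stands at 23.9.

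Among the Sult1 genes, Sult1e1, which inactivates oestrogens, had a fold of 14.02 at 9707 bp upstream, and Sult1a1, which sulfates phenols, had 12.9 and 10.2. Sult1d1, known for catecholamines, had 7.64 at 4197 bp upstream, Sult1c2 had 6.86 at 334 bp upstream, and Sult1b1, known for thyroid hormones, had 5.05 at 26 bp downstream of its start. Sult1c1 had none. Sult5a1 had 9.01 and Sult3a2 had 5.43. The summit of 9.24 within reach of Sult6b2 lay 9932 bp outside it and 167 bp from the start of Gm7457. The summit of 6.07 within reach of Sult4a1, a mainly neural enzyme, lay 9464 bp outside it and inside Pnpla5. Sult2b1, known for sulfating cholesterol in skin, Sult3a1 and Sult6b1 had no summit. In the whole family only Sult2a8, Sult1e1, Sult1a1 and Sult2a1 reached fold 10.

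Several calls rest on the 10 kb limit. Just inside it lay the only summits of Sult6b2 (9932 bp outside the span, fold 9.24), Sult4a1 (9464 bp, 6.07) and Gstp3 (9165 bp, 16.8), and the strongest of Sult1e1 (9707 bp, 14.02), which has others; just outside it lay summits near Ugt1a10 (10194 bp, 12.7), Gsto2 (10260 bp, 5.66) and Gsta1 (10377 bp, 5.20). Counting error also limits the order of summits within a gene. Of the 39 members with at least 2 summits, the fragment intervals of the strongest and the next were apart at 28 and overlapped at 11.

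Position relative to a start was known for 55 members. A summit lay within 1 kb of an annotated start at 22 of them (all genes with a start, 34.5%). Within 1 kb of a member's own start lay 24 distinct summits, and they reached from 4.56 at Sult2a4 to 23.9 at Sult2a8. Taking the nearest start of any gene, 25.7% of the 113 summits were within 1 kb and 54.0% were at 1 to 10 kb, with a median fold of 8.37 in both ranges. For the 27040 ZT10 summits on chromosomes with an annotated start, these shares were 23.3% and 22.5%, with medians of 6.35 and 7.18. The rule itself, however, keeps summits close to genes and so shapes the shares of the members. Within 10 kb of a member's start, 46 summits were upstream with a median fold of 8.74 and 39 downstream with 7.04.

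**Figure D5:**
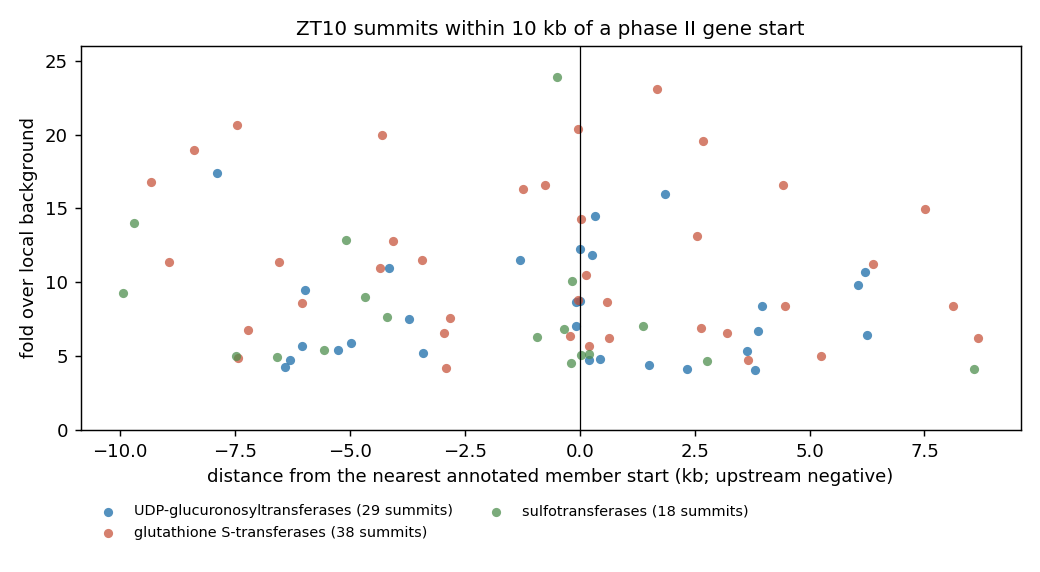
Each point is 1 of 85 ZT10 summits within 10 kb of the nearest annotated start of a phase II gene, with distance in kb (upstream negative) across and fold over local background up, coloured by family. Folds near 20 occur several kb from a start as well as close to it.

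Promoter windows of 300 bases were at hand for 55 members, which gave 66 windows. A summit lay in 13 of them (19.7%), against 11.1% of all 21045 windows in the RefSeq table. Those 13 windows belong to 11 members, because Gstm4 and Gstm7 each count the same summit in overlapping windows. Letters were searched on both strands. AGGTCA was in 12 member windows (18.2%, against 14.6% of all windows), and its longer forms TAGGTCA and ANTAGGTCA, which contain it, were in 2 (3.03% against 2.35%) and 1 (1.52% against 0.523%). Pairs of half-sites with the spacings called DR2 and DR4 were found in no window at all. The antioxidant element TGACNNNGC, bound by NRF2, was in 3 (4.55% against 13.0%), and GCGTG, the core bound by the dioxin receptor, in 13 (19.7% against 38.8%). The E-box CACGTG was in none (all windows, 7.91%), and the D-box TTATGTAA in 1 (1.52% against 0.903%). A match is only a match of letters, and none of these shares was tested.

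Of those matches, 5 are shown as examples of the longer motifs, beside starts with a summit and, in Gstm5, beside a start without one; the other matches, including TGACNNNGC in Gstm7, are not printed. Each is 30 bases of RefSeq GRCm38.p6 on the gene's strand, with the motif in capitals (on the opposite strand for Sult1b1 and Ugt2b1). They are ANTAGGTCA in Sult1b1 at chr5:87538299-87538328 (minus strand), TAGGTCA in Sult2a8 at chr7:14438624-14438653 (minus strand), TTATGTAA in Ugt2b1 at chr5:86926544-86926573 (minus strand), and TGACNNNGC in Gsta3 at chr1:21240454-21240483 (plus strand) and in Gstm5 at chr3:107895802-107895831 (plus strand).
Sult1b1: gttgtcactcTGACCTATTacaactgttga
Sult2a8: agttagggatgTAGGTCAggggttaaaagc
Ugt2b1: attgacagaacTTACATAAaagcagaaaaa
Gsta3: aactcaggcaTGACATTGCatttttcttct
Gstm5: caccgcccacTGACCACGCggagggcgggt

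The longest REV-ERBα form, in Sult1b1, lay 123 bp upstream of a start whose summit had a fold of 5.05, and the form in Sult2a8 lay 91 bp upstream of the start next to the summit of 23.9. The matches in Gsta3 and Ugt2b1 lay 121 and 59 bp upstream of starts with summits of 8.83 and 12.2. The match in Gstm5 lay 42 bp upstream of the start of a gene with no summit. Gstm7, whose summit of 20.4 lay 45 bp from its start, had no AGGTCA in its windows but had TGACNNNGC in the window of its second start, which also held the summit. In these few genes a match stood beside starts with strong, weak and no summits.

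Genes that feed or control conjugation were described as lists, to be read against the 54.5% of all genes with a ZT10 summit and the 19.1% with one of fold 10 or more. Those that supply UDP-glucuronate or encode other glycosyltransferases had a ZT10 summit at 6 of 7, with fold 10 or more at 4, led by Slc35d1 (21.6), a transporter of nucleotide sugars, Slc35d2 (20.2) and Ugt3a1 (10.3). Those of sulfate supply had one at 7 of the 8 that matched the annotation, with fold 10 or more at 3, led by the PAPS synthases Papss2 (21.2) and Papss1 (13.7) and the sulfate transporter Slc26a1 (10.9). The glutathione list had one at 9 of 12, with fold 10 or more at 7, led by Mgst1 (25.1), a microsomal transferase, Hagh (21.5), which hydrolyses glutathione thioesters, and Mgst3 (17.2). The sulfate donor synthase Papss2 had a higher fold than any of the 15 sulfotransferases with a summit except Sult2a8.

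A list of other enzymes, most of them conjugating, had a summit at 13 of 13 genes, with fold 10 or more at 9. It was led by the methyltransferase Inmt (24.7), Nat8 (23.5), which acetylates cysteine conjugates, and the epoxide hydrolase Ephx1 (20.9). Ephx1 and Nqo1 in this list are not conjugating enzymes. Nat1 and Nat2 had the same strongest fold (5.98) and fragment count (126). Regulators of these genes had one at 12 of 12, with fold 10 or more at 7, led by Nr1i3 (21.7) and Nr1i2 (21.6), which encode the drug sensors CAR and PXR, and Nfe2l2 (20.1), which encodes NRF2. The median strongest fold was 10.2 for UDP-glucuronate supply, 8.33 for sulfate supply, 13.6 for glutathione, 13.7 for the other enzymes and 10.4 for regulators. It was 14.02 for the phase II genes and 7.82 for all genes with a summit. None of the genes in these lists had a ZT22 summit.

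At ZT22 the nearest summit to any phase II gene lay 441.7 kb from Sult1a1, with a fold of 8.20 in its list, followed by one 1755 kb from Gsto1 with a fold of 4.74. There was a ZT22 peak somewhere on the chromosome of 53 members and none on that of the other 9. The lowest ZT22 summit held 82 fragments and the lowest at ZT10 held 83. The lowest folds were 4.08 at ZT22 and 4.01 at ZT10, and the lowest −log10 q were 3.35 and 5.76. These are minima of each list, and whether both lists were equally sensitive was not tested. The 516 fragments at Sult2a8 at ZT10 were well above the lowest count of the ZT10 list, and the 95 at Sult2a4 were close to it. Signal at the members below the list's threshold at ZT22 was not analysed here.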

How the data were processed

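Per the labels, formaldehyde and EGS were used to fix nuclei, sonication sheared the chromatin, and Tn5 tagmentation gave the libraries. The submitters' processing notes list MACS2 2.1.2, BWA 0.7.17, deepTools 3.3.0, SAMtools 1.9, Picard 2.18.12, cutadapt 2.3, bcl2fastq 2.17 and the build mm10, without roles. The sources used here do not give the control library. Per the labels, each list pools 4 samples. The deposited columns are a fold over local background (a ratio), −log10 p and −log10 q, and a score that was not used.

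Summits were assigned to RefSeq gene spans (GRCm38.p6, no exons) within 10 kb. Starts and promoters came from the RefSeq promoter table, which held 55 members (not Gsta4, Gstt2, Sult2a1, Sult2a2, Sult2a7, Sult4a1 or Ugt1a6b). Fragments were solved from fold and −log10 p, with a pseudocount of 1 and the Poisson tail; 87.1% of ZT10 and 72.2% of ZT22 peaks had the lowest background, and all of these gave whole fragments within 0.1. The solver was tested on simulated data. Python 3.11.15, pandas 2.3.3, scipy 1.17.1 and Biopython 1.88 were used.

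Members, lists and rules were chosen with earlier results of these data known. Named in full are the 3 strongest members of each subfamily, members without a summit and the 3 strongest genes of each other list; the remaining members are also named with their values. Impad1 and Sts did not match. With 1 pooled list per time no test was made. Alternatives tried were spans alone, reaches of 2 or 50 kb, peaks with −log10 q of 10 and above, assignment to the nearest gene, peak intervals, annotated starts, and clusters joined within 100 or 500 kb.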

Additional observations from a re-analysis of the deposited data

How the results depend on the processing

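No paired analysis was possible because the 4 samples of each time were pooled into 1 list, and no sample could be left out. Of 66 alternative values, 61 stayed within 1.5 times the reported count or within the interval of the reported median. The other 5 moved with the reach, by its construction. The 113 distinct summits became 61 inside spans only, 74 at 2 kb and 182 at 50 kb, and with spans only the counts of genes with a summit fell from 20 to 13 (Gst) and from 15 to 8 (Sult). Members with a summit ranged from 36 of 62 (inside spans, where all genes gave 36.2%) to 60 (50 kb, 70.5%). They were 42 when distance was taken from annotated starts, an alternative chosen after seeing the data (all genes, 37.7%). Only genes with an annotated start could count there, which were 55 of the 62 members and 17274 of all 21631 genes. The median strongest fold ranged from 11.9 to 16.8, and the interval of the reported median was 10.07 to 17.37. That interval treated the 53 members with a summit as independent, though they hold only 41 distinct strongest summits. ZT22 gave 0 members under each alternative. These values are among the 61, and a list of 36 peaks left them little room to change. The lowest summit at the members held 83 fragments, at a fold of 4.01; signal below the lists was not analysed here.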
